A study of Homo sapiens with 18 samples.

Results

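The long arm of chromosome 7 from band q22 to q35 (hg19 positions 98.0 to 147.9 Mb, a stretch of 49.9 Mb whose deletion has been reported for KG-1 cells) was followed through maps of the DNA topoisomerases TOP2A and TOP2B. Its members were all peaks whose midpoint fell between these positions, 15138 of the 1413022 MACS peaks in 12 lists (1.07%) and 15310 of the 1483019 SISSRs sites. They were set against the rest of chromosome 7, which holds the short arm (up to 57.0 Mb) and the proximal long arm (62.0 to 98.0 Mb). A peak is a place where the peak caller found more reads than its own background. Members were taken by position alone, although the stretch itself was picked with earlier results of these data known.

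KG-1 is a human myeloid leukaemia line, and all libraries were made from it. In the etoposide experiment cells were exposed to 100 µM etoposide for 1 h or to the methanol vehicle, with 2 libraries for each antibody and treatment. In the mitoxantrone experiment cells were exposed to 0.5 µM mitoxantrone for 1 h or left untreated, with 1 library for each antibody and treatment. Chromatin was fixed with 1% formaldehyde for 10 min. Of the 18 samples, 6 are inputs and are not used here. The culture was split before treatment and nothing in the labels says that replicates were separate cultures, so the p-values reflect only how far these libraries vary, and that variation may be technical. The main tests take each library as separate, although TOP2A and TOP2B libraries of the same treatment and replicate may share chromatin.

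Type II topoisomerases pass a DNA double strand through a transient break in another. TOP2A is the form of dividing cells and works on replicated and condensing chromosomes, while TOP2B is present in resting cells too and acts at transcribed genes and loop anchors. Etoposide and mitoxantrone, both used against leukaemia, hold the enzymes on the cleaved DNA. Loss of the long arm of chromosome 7, whole or in part, is among the most frequent chromosome changes in myelodysplasia and acute myeloid leukaemia, including leukaemia after earlier chemotherapy, and the arm carries the tumour suppressor genes CUX1 and EZH2.

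Peaks were sparser from q22 to q35 than elsewhere on the chromosome in every list of both experiments. In the etoposide experiment the density there was 0.627 times that of the rest of chromosome 7, and this factor was nearly the same for both enzymes and with or without the drug. In the mitoxantrone experiment it was lower still, between 0.0745 and 0.493. The sparse part did not follow the band limits: it formed 2 runs that together reached about 3 Mb past q22 to q35 on either side and left a stretch of 12 Mb between them at close to the chromosome's usual density. The peaks found there had the same median width as those elsewhere in the etoposide experiment, with a median tag count 1.02 times as high.

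In TOP2A libraries with etoposide, 373 peaks (replicate 1) and 2116 peaks (replicate 2) lay from q22 to q35, which is 7.47 and 42.4 per Mb against 12.1 and 68.4 per Mb in the rest of the chromosome. In TOP2A vehicle libraries there were 2378 and 2756 peaks, or 47.7 and 55.2 per Mb against 74.7 and 88.5. These lists differed up to several-fold in length, yet the ratios were 0.618 and 0.620 with etoposide and 0.638 and 0.624 with the vehicle. TOP2B libraries with etoposide held 796 and 1079 peaks, at ratios of 0.665 and 0.617. TOP2B vehicle libraries held 1227 and 3249 peaks, at ratios of 0.612 and 0.623. All 8 lists were thus below 1 and spanned a narrow range, which the plot of ratios by library shows. The mean log2 ratio was -0.67 ± 0.039 (SD, n = 8), and the two-sided exact sign-flip permutation test over libraries gave p = 0.0078125, the smallest that 8 libraries allow (0.0208 after Benjamini-Hochberg adjustment over the 8 exact tests of this kind). SISSRs sites, bases covered, peaks with a score of at least 100, the median 1 Mb bin and other parts of the genome as the comparison all gave a negative value with the same p. Because the stretch was picked with earlier results of these data known, this sign was largely set in advance. The p-values are therefore no independent evidence of a low density.

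**Figure D1:**
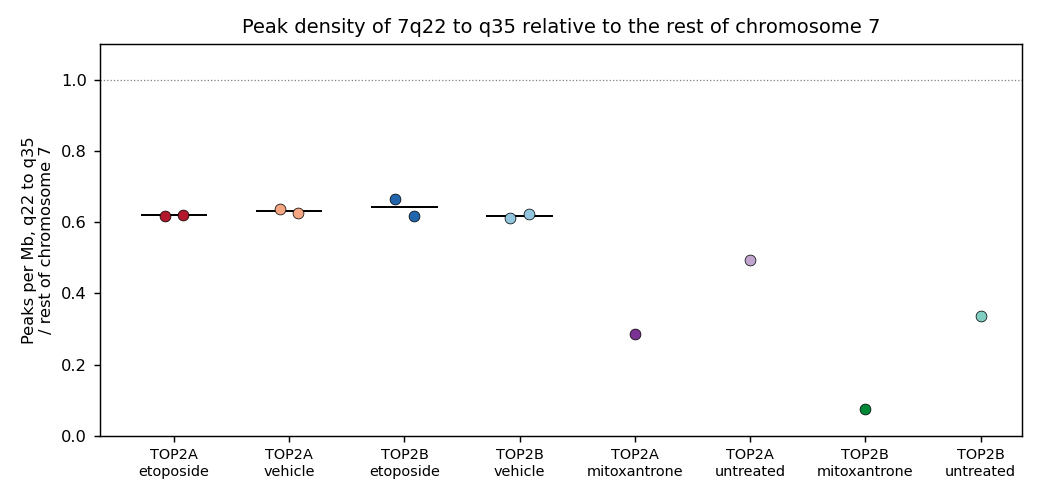
Peaks per Mb from q22 to q35 divided by peaks per Mb in the rest of chromosome 7, 1 point per library, with the group mean as a line where a group has 2 libraries. The 8 libraries of the etoposide experiment sit between 0.612 and 0.665, and the 4 of the mitoxantrone experiment between 0.0745 and 0.493.

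The ratios were then compared between treatments and enzymes. For TOP2A the mean log2 ratio was -0.69 with etoposide and -0.66 with the vehicle, a difference of -0.03 (pooled SD 0.016, n = 2 each), and both etoposide values lay below both vehicle values. For TOP2B it was -0.64 with etoposide and -0.70 with the vehicle, a difference of 0.05 (pooled SD 0.055, n = 2 each), and the groups overlapped. That difference depended on the measure: it was 0.18 with the median bin and 0.08 against the short arm alone, both with no overlap between the groups (exact permutation p = 0.333), and 0.00 to 0.11 with 1 library left out. In the main measure the exact permutation p was 0.333 for TOP2A, the smallest that 2 against 2 libraries can give, and 0.667 for TOP2B, so neither comparison could have passed 0.05. Between enzymes, TOP2A averaged -0.68 ± 0.021 and TOP2B -0.67 ± 0.055 (SD, n = 4 each), and the difference of -0.01 had an exact permutation p of 0.914. Its sign turned with SISSRs sites (0.01), a score of at least 100 (0.01), the median bin (0.03) or without TOP2B etoposide replicate 1 (0.02), and that of the TOP2A drug difference turned with the median bin (0.13).

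The mitoxantrone experiment gave fewer peaks and a deeper trough. With mitoxantrone 44 TOP2A peaks lay from q22 to q35, against 1057 in the untreated library. That is 0.882 per Mb against 3.10 per Mb in the rest of the chromosome with mitoxantrone (ratio 0.285), and 21.2 against 42.9 per Mb without drug (ratio 0.493). TOP2B gave 1 peak with mitoxantrone (ratio 0.0745) and 62 untreated (ratio 0.337). Of the peaks in both compartments, the q22 to q35 stretch held 13.3% with mitoxantrone (95% exact binomial interval 9.80 to 17.4%) and 20.9% untreated (19.8 to 22.1%) for TOP2A. For TOP2B it held 3.85% with mitoxantrone (0.0973 to 19.6%) and 15.3% untreated (11.9 to 19.2%). The stretch is 34.9% of the length compared, above the upper limit of each interval. Intervals cover counting error only.

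With 1 library per group there was no test of the drug. The log2 ratio with mitoxantrone minus that without was -0.79 for TOP2A (95% counting interval -1.26 to -0.32) and -2.18 for TOP2B (-5.09 to 0.73). The TOP2B value turned to 1.28 with SISSRs sites, of which the list with mitoxantrone held 10 from q22 to q35, against 24 in the untreated list. The mean over the 4 libraries was -2.04 ± 1.19 (SD), with an exact sign-flip p of 0.125, the smallest that 4 libraries allow.

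Every library of the mitoxantrone experiment had a lower ratio than every library of the etoposide experiment. The log2 ratios differed by -1.36 (means -2.04 and -0.67, n = 4 and 8), with a two-sided exact permutation p of 0.00202, the smallest possible, and an adjusted p of 0.0162. Without the TOP2B mitoxantrone library, whose whole list has 702 peaks, the difference was -0.79 (exact permutation p = 0.00606). Within the mitoxantrone experiment the ratio was higher the longer the list, from 702 peaks (0.0745) through 7607 (0.285) and 9290 (0.337) to 109739 peaks (0.493). In the etoposide experiment the shortest list, with 36528 peaks, had a ratio of 0.618 and the longest, with 297394, one of 0.623. The experiments also differ in control, dose and peak form: median peak widths from q22 to q35 were 454 to 969 bp in the mitoxantrone experiment and 98 to 128 bp in the etoposide experiment. The part of these and of list length in the difference was not tested.

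Along the chromosome the density was read in bins of 1 Mb, each divided by its library's mean over the autosomes. Of the 49 whole bins from q22 to q35, 48 had a mean over the 8 etoposide-experiment libraries below 1, and in 38 all 8 libraries were below 1. The median bin stood at 0.530. A bin was counted as low where at least 6 of the 8 libraries had less than 0.75 times their autosomal median. From q22 to q35, 36 of 50 bins were low (72%), against 2 of 93 bins in the rest of chromosome 7 and 9.07% of the 2712 autosomal bins. Chromosome 7 had the second highest share of low bins of any autosome (25.5%), behind chromosome 5 (48.9%) and close to chromosomes 17, 12 and 4 (24.3 to 25.3%). The longest unbroken low series on chromosome 7, from 127 to 149 Mb, ranked 4 in the genome, after 2 on chromosome 5 (86 to 137 Mb and 138 to 167 Mb) and 1 on chromosome 4 (145 to 190 Mb). The trough on the long arm of chromosome 7 was therefore 1 of several of its kind in these lists.

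The lowest bin was 110 to 111 Mb, at 0.352 ± 0.120 (SD, n = 8) of the library mean, with library values from 0.156 to 0.487. The bins 136 to 137 Mb (0.384 ± 0.0874) and 146 to 147 Mb (0.406 ± 0.195) followed. The spread of these 3 overlapped, so their order is not firm. The 3 highest bins lay side by side at 115 to 118 Mb. They stood at 0.996 ± 0.165 (115 to 116 Mb), 0.980 ± 0.156 (116 to 117 Mb) and 1.002 ± 0.181 (117 to 118 Mb), and the lowest library value among them was 0.762. In every library of the etoposide experiment each of these high bins exceeded each of the low ones. The bins were picked by their mean over these same 8 libraries, so this order was largely set by the choice.

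**Figure D2:**
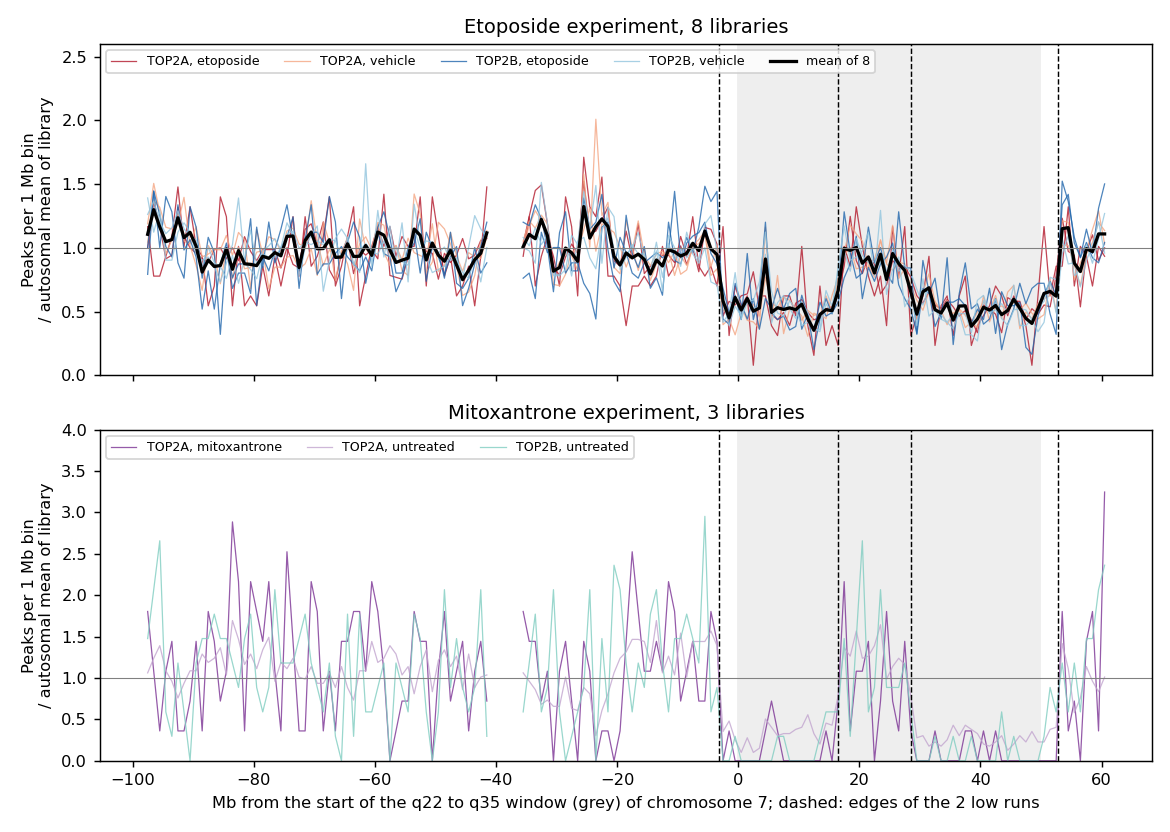
Peaks per 1 Mb bin divided by the library's autosomal mean, along chromosome 7 from the short arm (left) to the end of the long arm (right), with distance counted from the start of the q22 to q35 stretch and the bins around the centromere left out. In the etoposide experiment (upper panel, thin lines for libraries, thick line for their mean) the mean runs near 1, drops to about 0.5 in 2 runs and returns to near 1 between them, and 3 libraries of the mitoxantrone experiment (lower panel, the TOP2B mitoxantrone list with 31 peaks on the chromosome not drawn) also drop in the same runs, to 0.0644 to 0.305 of the density outside them.

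The edges were first sought as those of a single low run of at least 10 Mb, by Poisson likelihood in 1 Mb bins. The median over the 8 libraries was 95 Mb for the left edge and 151 Mb for the right edge. Libraries gave 93 to 96 Mb on the left and 148 to 151 Mb on the right. Both edges lay outside the q22 to q35 limits, by about 3 Mb each. In the mitoxantrone experiment the TOP2A mitoxantrone library gave the same 95 and 151 Mb and the untreated TOP2B library 95 and 149 Mb. The untreated TOP2A library gave 127 to 151 Mb alone, and the TOP2B mitoxantrone list was too short to place a run.

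A single run left a high stretch inside it, and an arrangement of several low runs at 1 shared level was therefore tried after the profile had been seen. Over the pooled peaks of the etoposide experiment in 100 kb bins, the log likelihood gain over a flat chromosome was 1543 for 1 run, 1988 for 2 runs and 1820 for 3 runs of at least 5 Mb each. In single libraries 2 runs always gained over 1, while 3 runs gained more than 2 in 4 of the 8 libraries and in 3 of the 4 of the mitoxantrone experiment, with the added run at differing places. The 2 runs spanned 94.9 to 114.5 Mb (19.6 Mb) and 126.5 to 150.8 Mb (24.3 Mb). Read in steps of 10 kb, the edges within 2 log units of the best were 94.87 to 94.89, 114.47 to 114.51, 126.52 to 126.58 and 150.78 to 150.79 Mb. These ranges hold counting error only. Together the runs held 76.0% of the q22 to q35 stretch. The label of a single q22 to q35 unit was thus not what the peak density showed. Part of the stretch stood near the density outside the runs, at 0.905 of it on average over the etoposide-experiment libraries. The low density began before the q22 to q35 stretch and ended after it.

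Nearly the same 4 edges came out of the pooled mitoxantrone experiment, which shares no library with the etoposide experiment. Its pooled peaks, most of them from the untreated TOP2A library (5464 of 6311), gave 94.9, 114.5, 126.6 and 150.7 Mb. Of its single libraries, TOP2A with mitoxantrone gave 94.9, 114.8, 126.3 and 151 Mb and TOP2A untreated 94.9, 114.5, 126.6 and 150.8 Mb. The untreated TOP2B list, with 450 peaks on the chromosome, gave 94.6, 112.8, 126.5 and 148.5 Mb. The TOP2B mitoxantrone list, with 31 peaks, gave other edges, at 19.7, 49.7, 63.1 and 158.1 Mb. Subsets of the etoposide experiment were close to its pooled edges. The replicate 1 libraries alone gave 94.9, 114.7, 126.3 and 150.8 Mb. TOP2A alone gave 94.9, 114.5, 126.5 and 150.8 Mb, and TOP2B alone 94.9, 114.7, 126.5 and 150.7 Mb. Between single libraries of the etoposide experiment the edges ranged over 94.4 to 95.9, 114.4 to 115.1, 124.9 to 126.6 and 148 to 150.9 Mb, and 6 or 7 of the 8 libraries lay within 500 kb of each pooled edge.

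Counts on both sides of each edge are a description, since the edges were fitted to the pooled lists of the etoposide experiment. A drop in those lists was therefore largely set in advance. In the pooled etoposide experiment, the 1 Mb inside the start of the first run held 223 peaks against 464 in the 1 Mb before it, a ratio of 0.481. At the end of the first run there were 236 peaks inside and 452 outside, at the start of the second run 234 inside and 383 outside, and at its end 249 inside and 525 outside. The inside was lower in 8 of 8 libraries at 3 edges and in 7 of 8 at the start of the first run, where the shortest list of the etoposide experiment, TOP2A etoposide replicate 1, held 15 peaks inside and 10 outside. In the mitoxantrone experiment the ratios of pooled peaks at these same edges, which were not fitted to its lists, were 0.235, 0.349, 0.214 and 0.250.

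**Figure D3:**
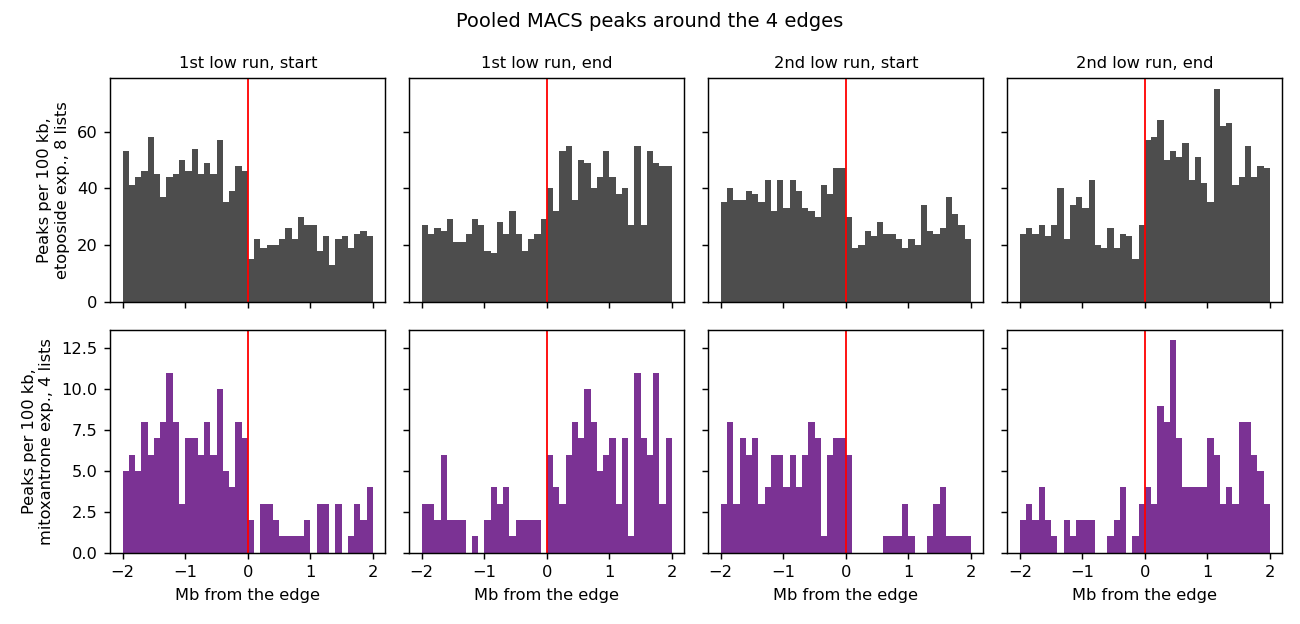
Pooled MACS peaks per 100 kb within 2 Mb of each edge of the 2 low runs, for the 8 lists of the etoposide experiment (upper row) and the 4 lists of the mitoxantrone experiment (lower row), with the edge of the pooled etoposide experiment as a red line. Within 1 Mb of an edge, the inside holds 0.474 to 0.611 times the peaks of the outside in the upper row and 0.214 to 0.349 times in the lower row.

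Because the edges were fitted to these lists, the levels on both sides are given as a description, relative to chromosome 7 outside both runs and the stretch between them. The first run stood at 0.534 ± 0.0193 and the second at 0.527 ± 0.0336 (SD, n = 8 libraries of the etoposide experiment). The ratio of first to second run was 1.02 ± 0.0780, so the 2 runs did not differ beyond the spread between libraries. The stretch between them stood at 0.905 ± 0.0428, with a range of 0.827 to 0.963 that stayed below 1 in all 8 libraries. The end of the arm beyond the second run stood at 1.04 ± 0.0842. When the edges of the replicate 1 libraries were used on the 4 replicate 2 libraries, the runs stood at 0.528 ± 0.0187 and none was above 0.541 (exact sign-flip p of the log2 levels 0.125, the smallest for 4 libraries).

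By group, the 2 runs together stood at 0.551 and 0.533 in TOP2A with etoposide and at 0.540 and 0.494 in TOP2A with the vehicle (replicates 1 and 2). They stood at 0.550 and 0.538 in TOP2B with etoposide and at 0.506 and 0.530 in TOP2B with the vehicle. Across both antibodies the 4 etoposide values lay between 0.533 and 0.551 and the 4 vehicle values between 0.494 and 0.540, and these ranges overlapped. Within TOP2B both etoposide levels were above both vehicle levels, and within TOP2A the groups overlapped. No test was made, since 2 against 2 libraries cannot pass 0.05.

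With the etoposide edges applied to the mitoxantrone experiment, the runs stood lower than in any library of the etoposide experiment. The TOP2A mitoxantrone library had 11 peaks in both runs together where 140 would stand at the density outside them, a level of 0.0784 (95% interval from exact binomial limits 0.0387 to 0.142). The untreated TOP2A library had 523 peaks and a level of 0.274 (0.250 to 0.300). The TOP2B mitoxantrone library had 0 peaks in the runs and 27 outside; 12.1 peaks would stand there at the outside density, and the exact upper limit of the level was 0.328. The untreated TOP2B library had 20 peaks and a level of 0.117 (0.0709 to 0.184). The upper limits of the TOP2A mitoxantrone and both untreated libraries were below the lowest level of the etoposide experiment, 0.494.

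The stretch between the runs behaved differently. In the mitoxantrone experiment it stood at 0.886 in TOP2A with mitoxantrone and at 1.17 in TOP2A untreated, and at 0.303 (1 peak) in TOP2B with mitoxantrone and at 1.03 in TOP2B untreated. Among the peaks from q22 to q35 it therefore held 34 of 44 (77.3%) in TOP2A with mitoxantrone, 613 of 1057 (58.0%) in TOP2A untreated and 48 of 62 (77.4%) in TOP2B untreated, as well as the single peak in TOP2B with mitoxantrone. In the etoposide experiment its share was 33.3 to 37.4%. How many copies of a stretch the cells carry and how densely the enzymes sit on each copy cannot be told apart in peak numbers.

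**Figure D4:**
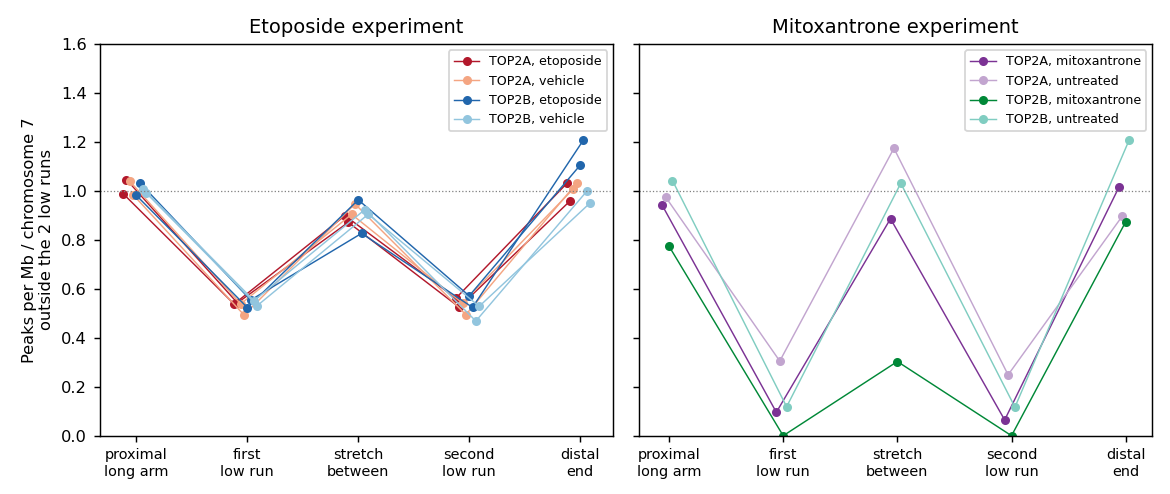
Peaks per Mb in 5 stretches of the long arm of chromosome 7 divided by peaks per Mb outside the 2 low runs and the stretch between them, 1 line per library. In the etoposide experiment (left) both runs sit at 0.468 to 0.571 and the stretch between them at 0.827 to 0.963, and in the mitoxantrone experiment (right) the runs sit at 0 to 0.305 while the stretch between them is at 0.303 to 1.17.

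No single bin of the long arm passed the test for a drug response or for an enzyme. In limma fits over all 1 Mb bins of the genome (2887 bins for TOP2A, 2885 for TOP2B and 2887 between enzymes), 0 bins passed a Benjamini-Hochberg adjusted p of 0.05 in each of the 3 comparisons, so the share called was 0% in each, and 0 of the 50 bins from q22 to q35 passed. At an unadjusted p under 0.05, limma gave 4 of these 50 bins for etoposide against vehicle in TOP2A, 2 in TOP2B and 1 between TOP2A and TOP2B, beside 100, 130 and 99 bins over the genome. The median log2 change of the 50 bins with etoposide was -0.03 for TOP2A and 0.01 for TOP2B, beside 0.00 for both over all bins. With 2 libraries per group, the standard error of that log2 change per bin was 0.220 to 0.954 for TOP2A. For TOP2B it was 0.226 to 0.524. The lack of called bins therefore does not show that no bin changed. Without TOP2A etoposide replicate 2 the fit called 549 bins in the genome (11 of the 50), and without TOP2B etoposide replicate 2 it called 124 (2 of the 50). In each of these fits the lone etoposide library is assumed to vary as the vehicle libraries do.

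The median tag count of a SISSRs site was 30 to 185 from q22 to q35 and 30 to 177 in the rest of the chromosome over the 8 libraries of the etoposide experiment. The ratio within a library was 1.02-fold on average and above 1 in 5 of 8 libraries and exactly 1 in the other 3 (exact sign-flip p = 0.0625, the smallest that 5 untied libraries allow). All tags in sites, counted per Mb, stood at 0.593 to 0.654 of the rest of the chromosome, close to the range for the number of peaks. The lower total went with fewer sites at a similar median tag count per site. The deposited fold over background had a median of 67.5 to 157.9 from q22 to q35 and 61.4 to 149.1 in the rest of the chromosome, higher from q22 to q35 in 7 of 8 libraries and equal in TOP2B vehicle replicate 1. In the mitoxantrone experiment its medians were 18.0 against 12.3 in TOP2A with mitoxantrone and 11.5 against 7.80 in TOP2A untreated, and 26.7 against 25.9 in TOP2B with mitoxantrone and 5.985 against 4.255 in TOP2B untreated, again with q22 to q35 higher. The fold was not tested. In the etoposide experiment 95.0 to 99.7% of MACS peaks from q22 to q35 held a SISSRs site, and 94.5 to 99.6% elsewhere on the chromosome. The difference was 0.314 percentage points, higher in 6 of 8 libraries (exact sign-flip p = 0.172). In the mitoxantrone experiment the shares were 22.7% against 28.1% elsewhere in TOP2A with mitoxantrone and 60.2% against 61.4% in TOP2A untreated. They were 25.8% against 32.7% in TOP2B untreated, and in TOP2B with mitoxantrone the single peak held a site, against 8% elsewhere.

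Small shifts in score and width passed the test in the etoposide experiment. Scores are the authors' values and were compared only as percentiles within each list, where the median peak from q22 to q35 stood 3.99 points higher than in the rest of the chromosome (SD 2.25, higher in 7 of 8 libraries and equal in TOP2B etoposide replicate 1, exact sign-flip p = 0.0156, adjusted p = 0.0312). The share of peaks wider than the smallest width of their list was 17.4 to 40.3% from q22 to q35 and 18.9 to 40.7% elsewhere, 1.15 percentage points lower on average (SD 0.684, lower in 8 of 8 libraries, exact sign-flip p = 0.0078125, adjusted p = 0.0208). The median width was the same in both compartments in all 8 libraries. In the mitoxantrone experiment the score difference was mixed in sign and not tested. It was -4.37 points in TOP2A with mitoxantrone and -1.07 in TOP2B untreated. It was 3.88 in TOP2A untreated and 26.4 in TOP2B with mitoxantrone, the latter from 1 peak.

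The distance between neighbouring peaks restates the density, since fewer peaks per Mb lie farther apart. The median distance between neighbours was 87.5 and 15.4 kb in TOP2A with etoposide (55.6 and 10.0 kb in the rest of the chromosome), and 13.9 and 11.5 kb with the vehicle (8.83 and 7.69 kb). For TOP2B it was 41.7 and 31.0 kb with etoposide (27.7 and 19.4 kb elsewhere) and 26.0 and 9.94 kb with the vehicle (16.7 and 6.59 kb). The longest peak-free interval ran over 8367 kb in TOP2A with mitoxantrone, from 104.2 to 112.6 Mb, and over 5543 kb in untreated TOP2B, from 105.7 to 111.2 Mb. Both of these intervals lie inside the first low run.

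Few positions recurred, from q22 to q35 as in the rest of the chromosome. Merging overlapping peaks of the 12 lists gave 14311 blocks, of which 94.7% had a peak in 1 list only, and 7 were shared by 4 or more lists, the most being 5. A block can join peaks that do not overlap each other, through another peak between them. In the rest of chromosome 7, 92.1% of 42477 blocks came from 1 list and 35 were in 4 or more. Replicates of TOP2A with etoposide shared 11 peaks, 2.95% of the shorter list and 0.520% of the longer. With the vehicle the TOP2A replicates shared 46 peaks, 1.93% of replicate 1 and 1.67% of replicate 2. TOP2B replicates shared 5 peaks with etoposide (0.628% of replicate 1 and 0.463% of replicate 2) and 23 with the vehicle (1.87% and 0.708%). Sharing was low in the rest of the chromosome too, where the shared part of replicate 1 was 1.87% (TOP2A with etoposide), 2.58% (TOP2A vehicle), 0.942% (TOP2B with etoposide) and 3.64% (TOP2B vehicle).

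The block in the most lists was chr7:137869264-137869632 in the second low run, 369 bp long, with a peak in 5 lists. They were TOP2A etoposide replicate 1, TOP2A vehicle replicate 2, both TOP2B etoposide replicates and TOP2A untreated. Its MACS score stood at the 91.6th percentile of the list in TOP2A etoposide replicate 1 and at the 2.80th in TOP2B etoposide replicate 2, so the same place was among the strongest peaks of 1 library and the weakest of another. Next came chr7:124610457-124610892 in the stretch between the runs, found in TOP2A lists only (both etoposide replicates, vehicle replicate 1 and untreated), with scores at the 40.8th to 86.4th percentile. Its etoposide peaks, at 124610457-124610554 in replicate 1 and 124610646-124610771 in replicate 2, did not overlap each other. They were joined through the vehicle peak, 252 bp wide. The others named by rank were chr7:115193097-115193705 and chr7:116963049-116963399, both between the runs, and chr7:135119539-135119928 in the second run, each in 4 lists. In both of those between the runs, too, not all peaks overlapped each other. The gene reference at hand is on another build, so no gene was assigned to these blocks.

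In 3 libraries several peaks from q22 to q35 were tied at the highest score (7 in TOP2A etoposide replicate 2, 3 in TOP2B etoposide replicate 2 and 2 in TOP2B vehicle replicate 1). In the other 9 libraries the strongest peak was a different place in each. It lay between the runs in 6 of them, in the first run in 1 and in the second run in 2. In TOP2B with mitoxantrone it was the only peak from q22 to q35. Of all peaks from q22 to q35, 33.3 to 37.4% lay between the runs in the etoposide experiment. In the mitoxantrone experiment 58.0 to 100% did. Whether strong peaks favoured a stretch was not tested. In TOP2A vehicle replicate 1 the strongest peak was chr7:123583849-123583956, above 99.99% of that list, and its block had a peak in 3 libraries. In TOP2A untreated it was chr7:146160567-146160805 in the second low run. The low runs thus held strong peaks as well as weak ones.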

How the data were processed

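The members and lists of this account were chosen with earlier results of these data known. Chromatin immunoprecipitates were sequenced from both ends (50 bp reads) per the labels' protocols. Bowtie2 2.2.5, bedtools 2.26.0, MACS 1.4 and hg19 are named in the submitters' processing notes. The authors called peaks per library and deposited 1 MACS list with a score per peak (at least 50) and 1 SISSRs list, whose columns hold, from the values, a deposited tag count, fold and p-value per site. Caller settings, use of input and depth are unknown, and list lengths (702 to 297394 MACS peaks) limit precision.

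Peaks were counted by midpoint, and densities per Mb compared within each list, by two-sided exact permutation tests over libraries, adjusted by the Benjamini-Hochberg method. Bins of 1 Mb averaging 5 peaks or more were fitted with limma 3.58.1 (trend and robust, R 4.3.3) on log2 of peaks per 10000 with 0.5 peaks added. Low runs maximised the Poisson likelihood. The 3 lowest and 3 highest bins, up to 5 blocks in at least 4 lists and the strongest peak per library were named. The other steps were run in Python 3.11.15 with scipy 1.17.1, pandas 2.3.3, numpy 2.4.6 and, for plots, matplotlib 3.10.9. The exact tests, the searches for low runs and the limma fit of the drug were tried on simulated data. Alternatives were another caller, score limit, measure, comparison stretch, bin size, added count, filter, fit and left-out libraries.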

Additional observations from a re-analysis of the deposited data

Results flagged for a closer look

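The difference between the experiments in the density of q22 to q35 relative to the rest of chromosome 7 was picked out because the difference itself passed its test. The log2 ratio was lower by 1.36 in the mitoxantrone experiment than in the etoposide experiment (value -1.36, two-sided exact permutation p = 0.00202, adjusted p = 0.0162), and 4 of 4 mitoxantrone-experiment libraries lay below all 8 of the etoposide experiment. Both untreated libraries, at ratios of 0.493 (TOP2A) and 0.337 (TOP2B), were among the 4. No group had 4 or more libraries, so none was searched for a single deviating library.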

How the results depend on the processing

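Of 243 recomputed values, 231 were counted as unchanged. Tested values had to keep their direction and their side of the threshold, and counts of bins to stay within 1.5 times the count. Edges and levels had to stay within the SD between libraries, and the untested mitoxantrone differences within their counting interval. Comparisons of 2 against 2 libraries and sign-flip tests of 4 libraries cannot pass 0.05, so only a change of sign could count there. The density ratio of the etoposide experiment stayed between -0.76 and -0.64 (log2), each with an exact sign-flip p at the smallest value its number of libraries allows. Its sign was largely set in advance by the choice of the stretch. The sign of the TOP2A difference between etoposide and vehicle turned with the median bin (0.13). The sign of TOP2A minus TOP2B turned with SISSRs sites (0.014), a score of at least 100 (0.0075) and the median bin (0.025), and leaving out single libraries gave -0.022 to 0.018. The TOP2B difference between mitoxantrone and untreated was 1.28 with SISSRs sites. The width difference was lost with the median width (log2 ratio 0). With 1 Mb bins the end of the first low run moved to 115 Mb. Bins called for TOP2A with etoposide numbered 1 with a pseudocount of 2 peaks, and 0 to 549 with a library left out; for TOP2B that range was 0 to 124. The cause was not tested. A score of at least 100 or the median bin left no value for the mitoxantrone experiment.

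Replicate numbers were shared across groups, but the deviations of same-numbered etoposide and vehicle libraries correlated at 0.01 for TOP2A and -0.137 for TOP2B over bins. The numbers were therefore not taken as pairs between treatments. Whether TOP2A and TOP2B libraries of the same treatment and number pair was not examined in this way, and the main tests did not pair them. With the replicate number as a block the bin fits again called 0 bins, and the exact sign-flip p of the density differences was 0.5 (TOP2A), 1 (TOP2B) and 1 (between enzymes), with the differences themselves at -0.03, 0.05 and -0.01. With the TOP2B numbers crossed the block fit also called 0 bins.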

Other observations

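Inside the first low run, the bin from 102 to 103 Mb stood apart, and it was chosen after its values were seen. Its density was 0.912 ± 0.237 of the library mean (SD, n = 8 libraries of the etoposide experiment), with 430 pooled peaks, against 0.527 ± 0.130 and 230 peaks in the bin before it and 0.493 ± 0.0893 and 222 peaks in the bin after it. Its library values ran from 0.601 to 1.20. In the untreated TOP2A library it stood at 0.506, against 0.152 in the bin before and 0.404 in the bin after. TOP2A with mitoxantrone stood at 0.361 against 0 in the bin before and 0.721 in the bin after. With 11 peaks in both low runs together, that list is too short to order these bins. Both TOP2B libraries of the mitoxantrone experiment had 0 peaks in all 3 bins. TOP2A etoposide replicate 1 stood at 0.622 both here and in the bin before. The widest TOP2A untreated peak from q22 to q35, 1217 bp long at chr7:102134622-102135838, and the widest TOP2B etoposide replicate 2 peak, 298 bp long at chr7:102169803-102170100, both lie in this bin, as does the block chr7:102307100-102307729 with peaks in 4 lists. No test was made of this bin.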
